A study of Mus musculus with 6 samples.

Results

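The bone morphogenetic protein (BMP) pathway was followed through 10 genes that cover its secreted ligands (*Bmp2*, *Bmp4* and *Bmp7*), a receptor of each type (*Bmpr1a* and *Bmpr2*), secreted antagonists (*Grem1* and *Chrdl1*) and transcriptional targets (*Id1*, *Id2* and *Id3*). They were chosen by name, as the rows whose Ensembl identifiers carry these symbols in GENCODE M21, and all 10 were found among the 34866 genes of the count table. RNA sequencing had been carried out on excised intestinal adenomas from C57BL/6J mice aged 100 to 120 days, 3 Apc1322T/+ and 3 ApcMin/+ libraries, to compare the transcriptomes of these models of familial polyposis. Both alleles are germline truncations of the tumour suppressor Apc carried over a wild-type copy, the ApcMin product being the shorter and lacking the β-catenin binding sites of which the Apc1322T product keeps several. No deletion, Cre driver or drug is listed for either group, and by their labels the groups share strain, age window, tissue and sampling method and differ by the *Apc* allele. By the methods, a library mostly stands for 1 animal and combines more than 1 RNA preparation from it. Normal intestine was not analysed here, and every comparison is between the adenoma genotypes.

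BMPs are secreted dimers of the TGFβ superfamily that bring type I and type II receptor kinases together at the cell surface. The active receptors phosphorylate Smad1, Smad5 and Smad9, which enter the nucleus with Smad4 and switch on genes such as the *Id* family. In the intestine, much of the ligand is made by the mesenchyme, signalling is strongest towards the villus, where it favours differentiation, and antagonists released by the stroma around the crypt base keep it low next to the stem cells. Germline defects in *BMPR1A* and *SMAD4* cause juvenile polyposis in humans, and misplaced *GREM1* expression causes hereditary mixed polyposis.

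None of the 10 genes passed the threshold, an adjusted p under 0.01 between ApcMin and Apc1322T adenomas, in the quasi-likelihood test of edgeR. Log2 fold changes, given throughout as ApcMin minus Apc1322T, were positive for 5 and negative for 5, with a median of -0.0070 and a median size of 0.092, against a median of 0.017 and a median size of 0.21 over the 16536 genes tested. The same fit called 0 of those 16536 genes (percentage called 0), with 2495 (15.1%) at an unadjusted p under 0.05, of which 0 were among the 10. DESeq2 called 194 of 17503 genes (1.11%), again 0 of the 10, and 1 of the 10, *Grem1*, had an unadjusted p under 0.05 there. The libraries of the genotypes overlapped for all 10 genes, whereas over all tested genes all ApcMin libraries lay above the Apc1322T libraries for 11.0%, below them for 9.96%, and one or the other for 21.0%. The p-values measure the spread between these 3 and 3 libraries, 1 mouse each as far as the methods tell, and an exact permutation test of 3 against 3 cannot give a p under 0.10.

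The genes fell into steady and variable ones. *Bmpr1a*, *Id1* and *Id3* were among the steadier genes of the adenomas, with within-genotype SDs of log2 CPM (counts scaled to the library's size) at percentiles 3.80, 13.2 and 26.2 of all genes tested. *Grem1* and *Chrdl1* were among the most variable, at percentiles 92.4 and 97.9. The ligands lay between, at percentiles 66.2 to 75.8, and *Id2* and *Bmpr2* were near the middle of all genes, at 47.8 and 45.3. These percentiles were not matched for the level of the genes. The Apc1322T replicate 1 library held the highest level of all 6 libraries for 5 of the 10 genes (*Bmp4*, *Bmp7*, *Chrdl1*, *Id2* and *Id3*). For *Bmp4* the margin was narrow (4.668 against 4.657 log2 CPM in ApcMin replicate 2). It was also narrow over that library for *Id2* (6.1657 against 6.1465) and *Id3* (7.3709 against 7.3511). The share of all tested genes that were highest in Apc1322T replicate 1 was not counted. By its counts this library was not closest to its own genotype. Its counts were closer to each ApcMin library (chi-square per gene, larger for less alike libraries, of 51.9 to 78.3) than to the other Apc1322T libraries (86.8 and 97.6), and without it 4117 genes had an unadjusted p under 0.05 in place of 2495. The ApcMin libraries did not group by genotype either. ApcMin replicates 1 and 3 were closest to Apc1322T replicate 1 (58.7 and 51.9), and ApcMin replicate 2 to Apc1322T replicate 3 (50.9). This chi-square gives more weight to genes with high counts.

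**Figure D1:**
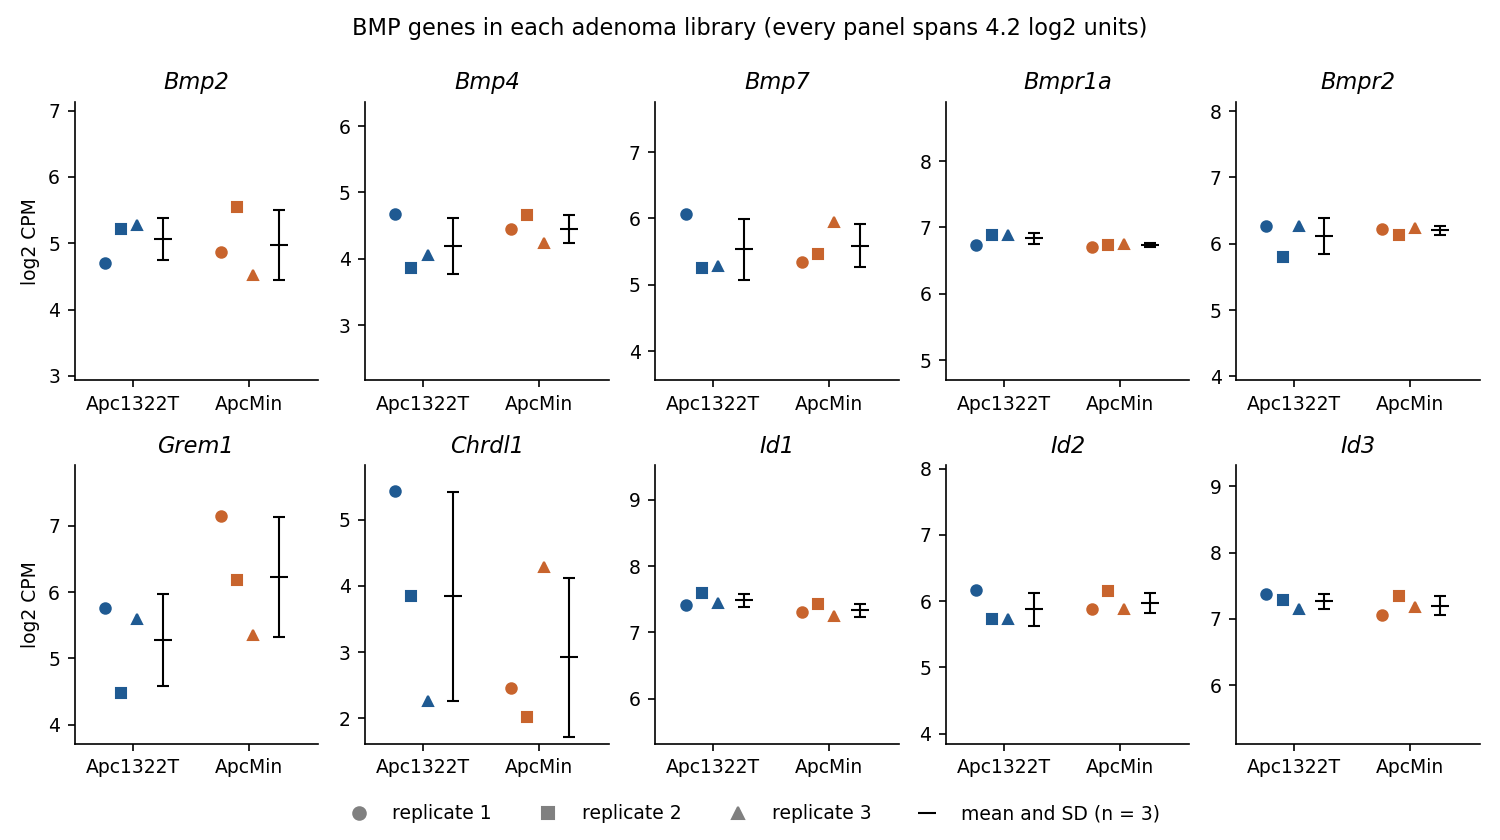
Level of each BMP gene (y axis, log2 CPM) in the 3 Apc1322T and 3 ApcMin adenoma libraries (x axis), with marker shapes for the replicate numbers and a bar for the mean and SD of each genotype (n = 3). Every panel spans the same number of log2 units, so that the tight points of *Bmpr1a* and *Id1* and the wide ones of *Grem1* and *Chrdl1* can be compared, and the genotypes overlap in every panel.

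The libraries held 23132461 to 33518324 estimated counts, so that 3 counts were worth 0.0895 to 0.130 CPM and the lowest value of the 10 genes, *Chrdl1* in ApcMin replicate 2, was 3.97 CPM. The lists of markers checked the tissue. Epithelial genes (*Epcam*, *Cdh1*, keratins and others) averaged 10.27 to 10.90 log2 CPM, and the Wnt targets typical of adenomas averaged 6.45 to 6.96, with a difference between genotypes of -0.012 (exact permutation test, two-sided, p = 1.0). In that list 4 genes were higher and 4 lower on average in ApcMin, among them *Axin2* (log2 fold change 0.30, edgeR adjusted p = 0.433) and *Lgr5* (-0.58, edgeR unadjusted p = 0.0157, adjusted p = 0.286). Fibroblast genes differed by 0.96 (p = 0.20, exact permutation), with 8 of 8 higher on average in ApcMin, and smooth muscle genes by 0.68 (p = 0.20, exact permutation), again with 8 of 8 higher. Endothelial genes differed by 0.45 and immune genes by 0.44 (each p = 0.20, exact permutation), while epithelial genes differed by -0.40, with 8 of 8 lower and p = 0.10, the smallest the exact permutation test allows. Without TMM scaling factors the epithelial difference was -0.24 with overlapping libraries (p = 0.20, exact permutation) and the fibroblast difference 1.12 (p = 0.10, exact permutation). The smooth muscle difference was 0.34 without Apc1322T replicate 2, and without ApcMin replicate 1 the endothelial difference was 0.29 and the immune difference 0.23. No marker of these lists was at 0 in every library, and 0 markers passed an adjusted p of 0.01 by edgeR. The adenomas were thus measured with their stroma, and in such bulk RNA fewer cells of a type and less RNA per cell cannot be told apart.

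Promoter sequence is shown for *Grem1*, which had the largest positive difference of the 10, and for *Bmp4*, a ligand whose protein gremlin binds. Each run is the 250 bases before the start site in RefSeq on GRCm38.p6, read 5′ to 3′ on the gene's strand, with capitals for matches to the motifs named next. The *Grem1* run lies at chr2:113758649-113758898 and the *Bmp4* run at chr14:46390670-46390919, both on the minus strand and outside the exons of these genes in GENCODE M21.
Grem1: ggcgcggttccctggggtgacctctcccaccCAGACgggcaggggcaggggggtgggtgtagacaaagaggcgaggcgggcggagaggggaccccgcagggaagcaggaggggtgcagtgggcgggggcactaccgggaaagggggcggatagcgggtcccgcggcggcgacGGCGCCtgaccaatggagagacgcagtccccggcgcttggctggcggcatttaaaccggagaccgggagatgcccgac
Bmp4: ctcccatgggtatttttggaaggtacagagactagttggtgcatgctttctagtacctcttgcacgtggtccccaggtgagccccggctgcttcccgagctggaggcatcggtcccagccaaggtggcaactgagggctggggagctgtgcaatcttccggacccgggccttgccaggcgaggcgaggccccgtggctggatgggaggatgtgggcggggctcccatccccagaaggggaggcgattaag
The 3 motifs were searched on both strands, and no match overlapped another in the printed runs: GGCGCC, a GC-rich element bound by Smad1 and Smad5, CAGAC, the Smad box, and CTTTGAT, a Tcf site. The *Grem1* run held 1 GGCGCC and 1 CAGAC, and the *Bmp4* run held none of the 3. Promoter entries were found for 6 of the 10 genes (*Bmp4*, *Bmpr1a*, *Bmpr2*, *Grem1*, *Id2* and *Id3*). GGCGCC was in 4 of the 6 (*Bmpr1a*, *Bmpr2*, *Grem1* and *Id2*), against 9.59% of 32851 mouse promoters of the same length, CAGAC in 2 of the 6 (*Grem1* and *Id3*) against 42.2%, and CTTTGAT in 0 of the 6 against 3.21%. The GC content of the 6 windows ran from 62.8% (*Id2* and *Id3*) to 78.8% (*Bmpr1a*). The shares over all promoters were not matched for base composition, and enrichment was not tested. The windows of *Bmpr1a*, *Bmpr2*, *Id2* and *Id3* overlapped annotated exons of the same genes, by 141 (*Bmpr1a*) to 250 bases (*Bmpr2* and *Id3*), and are not printed.

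Among the ligands, *Bmp2* (chr2:133552159-133562885, plus strand, GRCm38) is made by differentiated epithelium and by stroma. In Apc1322T adenomas it was at 4.70, 5.21 and 5.28 log2 CPM in replicates 1 to 3, and in ApcMin adenomas at 4.87, 5.55 and 4.52. Both the highest and the lowest library were ApcMin, and the Apc1322T values lay between them. The log2 fold change was -0.040 (SE 0.29, 95% interval -0.74 to 0.66, edgeR adjusted p = 0.955), and upper quartile scaling turned it to 0.022. *Bmp4* (chr14:46383520-46390669, minus strand), the main ligand of the villus and crypt mesenchyme, was at 4.67, 3.86 and 4.06 log2 CPM in Apc1322T and at 4.45, 4.66 and 4.24 in ApcMin. The lower Apc1322T libraries lay under all of ApcMin, while Apc1322T replicate 1 lay level with the highest ApcMin library. Its log2 fold change was 0.22 (SE 0.23, 95% interval -0.33 to 0.77, edgeR adjusted p = 0.649). Leaving out 1 library moved it from 0.065, without Apc1322T replicate 2, to 0.50, without Apc1322T replicate 1, and it was 0.11 without ApcMin replicate 2 and 0.13 without Apc1322T replicate 3. The fit without Apc1322T replicate 1 came with an unadjusted p of 0.0214 and an adjusted p of 0.144 by edgeR, and over all alternatives the adjusted p ran from 0.144 to 0.951. *Bmp7* (chr2:172868012-172940321, minus strand), which in many organs is made by epithelium, was at 6.06, 5.25 and 5.28 log2 CPM in Apc1322T and at 5.34, 5.47 and 5.95 in ApcMin. One library of each genotype stood above the others, Apc1322T replicate 1 and ApcMin replicate 3. A log2 fold change of 0.026 (SE 0.27, 95% interval -0.63 to 0.68, edgeR adjusted p = 0.969) took either sign when 1 library was left out (-0.18 to 0.34).

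Of the receptors, *Bmpr1a* varied little between libraries, and *Bmpr2* was near the middle of all genes in its spread. *Bmpr1a* (chr14:34410734-34503341, minus strand), the type I receptor of BMP2 and BMP4, was at 6.74, 6.88 and 6.88 log2 CPM in Apc1322T and at 6.70, 6.74 and 6.76 in ApcMin. The highest ApcMin library passed the lowest Apc1322T library by a narrow margin. Its log2 fold change was -0.10 (SE 0.078, edgeR adjusted p = 0.527), and its 95% interval, -0.29 to 0.082, was the narrowest of the 10 genes. *Bmpr2* (chr1:59763400-59879014, plus strand), the type II receptor, was at 6.27, 5.81 and 6.27 log2 CPM in Apc1322T and at 6.23, 6.13 and 6.24 in ApcMin. Apc1322T replicate 2 was low and the other 5 libraries were close together, and the log2 fold change was 0.070 (SE 0.14, 95% interval -0.26 to 0.40, edgeR adjusted p = 0.823).

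The antagonists had the largest differences in either direction and the widest spread. *Grem1* (chr2:113746164-113758646, minus strand) encodes gremlin, a secreted protein that binds BMP2, BMP4 and BMP7 and is made by pericryptal stroma. It had 1468, 467 and 1098 counts in Apc1322T and 5087, 1852 and 1284 in ApcMin, or 5.75, 4.48 and 5.59 against 7.15, 6.19 and 5.35 log2 CPM. Replicates 1 and 2 of ApcMin lay above all Apc1322T libraries, whereas ApcMin replicate 3 lay below Apc1322T replicates 1 and 3. The mean log2 CPM was 5.27 ± 0.69 in Apc1322T and 6.23 ± 0.90 in ApcMin (SD, n = 3), and the highest library held 6.40 times the CPM of the lowest. The log2 fold change was 1.04 (SE 0.53, 95% interval -0.24 to 2.32, edgeR adjusted p = 0.387), and 1.03 with an adjusted p of 0.217 in DESeq2, within a range of 0.217 to 0.744 over all alternatives. It stayed positive whichever library was left out, from 0.45 without ApcMin replicate 1 to 1.38 without ApcMin replicate 3, where the unadjusted p was 0.0259 and the adjusted p 0.485 by edgeR.

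*Grem1* was set beside the fibroblast list (*Col1a1*, *Pdgfra*, *Dcn* and others), whose mean was 6.28, 5.30 and 5.76 log2 CPM in Apc1322T and 7.35, 6.23 and 6.65 in ApcMin. In both, Apc1322T replicate 2 was the lowest library and ApcMin replicate 1 the highest, but in ApcMin replicate 3 they parted, the list being at its second highest level and *Grem1* at its second lowest. Taken relative to this list, in a comparison added after the data were seen, *Grem1* was at -0.51 ± 0.32 in Apc1322T and -0.52 ± 0.69 in ApcMin (log2 units, SD, n = 3), a difference of -0.0088 (exact permutation test, two-sided, p = 1.0), where the difference of the *Grem1* means themselves was 0.96. ApcMin replicate 3, at -1.31 against -0.20 and -0.041 in ApcMin replicates 1 and 2, lowered the ApcMin mean. The part of stromal content in the *Grem1* difference was not tested beyond this subtraction. The 5 genes whose levels followed *Grem1* most closely over the 6 libraries, of 13483 compared, were *Pcdh18* (Pearson's r 0.995), *Ptpn14* (0.993), *Fgf7*, *Ttc28* and *Prdm15* (each 0.980), and 127 genes reached r of 0.9. These correlations describe 6 points that share genotype and tissue make-up.

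*Chrdl1* (chrX:143285674-143394262, minus strand) encodes a chordin-like antagonist that binds BMP4. It had 1168, 300 and 108 counts in Apc1322T and 195, 101 and 613 in ApcMin, or 5.42, 3.84 and 2.26 against 2.46, 2.02 and 4.28 log2 CPM. High and low libraries occurred in each genotype, with a range of 10.8-fold in CPM over the 6 libraries. The mean log2 CPM was 3.84 ± 1.58 in Apc1322T and 2.92 ± 1.20 in ApcMin (SD, n = 3), and the log2 fold change was -1.10 (SE 0.92, 95% interval -3.34 to 1.13, edgeR adjusted p = 0.571). It rested on Apc1322T replicate 1, without which it was 0.015. Leaving out ApcMin replicate 3 instead gave -2.13. *Chrdl1* did not follow the fibroblast list, relative to which it differed by -1.89 (exact permutation p = 0.20).

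**Figure D2:**
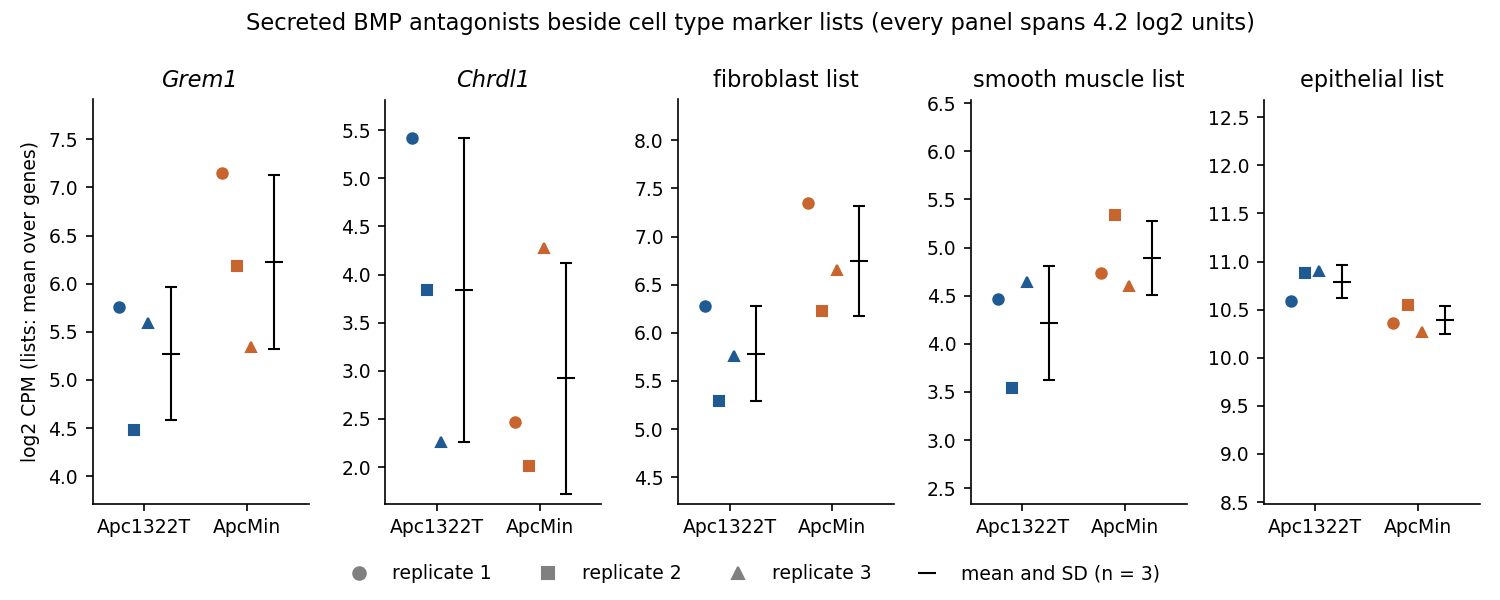
*Grem1*, *Chrdl1* and the mean of the fibroblast, smooth muscle and epithelial marker lists (y axes, log2 CPM) in each library by genotype (x axis), with a bar for the mean and SD (n = 3). *Grem1* and the fibroblast list share their lowest library, Apc1322T replicate 2, and their highest, ApcMin replicate 1, while *Chrdl1* is highest in Apc1322T replicate 1.

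The *Id* genes encode helix-loop-helix proteins that lack a DNA-binding region and block the E proteins they pair with. *Id1* (chr2:152736251-152737410, plus strand) had 4637, 4054 and 3988 counts in Apc1322T and 5677, 4387 and 4815 in ApcMin, or 7.41, 7.59 and 7.45 against 7.31, 7.43 and 7.25 log2 CPM. The ApcMin values lay at the lower end but overlapped Apc1322T through ApcMin replicate 2. Its log2 fold change was -0.15 (SE 0.092, 95% interval -0.37 to 0.066, edgeR adjusted p = 0.439), and it stayed negative whichever library was left out (-0.21 to -0.097). The epithelial list was lower in ApcMin by more than this. Relative to that list, in a comparison added after the data were seen, *Id1* was higher in ApcMin by 0.25 (exact permutation p = 0.10). A list that is lower by more than *Id1* makes this value positive by construction. No such comparison was made for *Id2* and *Id3*, and the part of epithelial content in the *Id1* difference was not tested. *Id2* (chr12:25093799-25097140, minus strand) was at 6.17, 5.74 and 5.74 log2 CPM in Apc1322T and at 5.88, 6.15 and 5.88 in ApcMin. Here 1 library of each genotype stood above the rest, and the log2 fold change was 0.079 (SE 0.15, 95% interval -0.27 to 0.43, edgeR adjusted p = 0.810). *Id3* (chr4:136143497-136145755, plus strand) was at 7.37, 7.28 and 7.15 log2 CPM in Apc1322T and at 7.06, 7.35 and 7.18 in ApcMin. The genotypes were interleaved, with a log2 fold change of -0.067 (SE 0.11, 95% interval -0.32 to 0.19, edgeR adjusted p = 0.775). Across the 6 libraries the CPM of *Id1*, *Id2* and *Id3* varied by 1.27-, 1.35- and 1.24-fold, and the 95% intervals of their log2 fold changes reached no farther from 0 than -0.37, 0.43 and -0.32.

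Compared per length, as CPM per kilobase of exon, the targets were the most abundant of the 10 transcripts. *Id1* was first with 147 ± 12.1 (SD over the 6 libraries), *Id3* second with 84.1 ± 7.06 and then *Id2* with 25.1 ± 3.38, and these ranges overlapped neither each other nor that of *Bmpr1a* (17.4 ± 0.958). *Grem1* followed with 15.3 ± 10.1, *Bmp7* with 12.0 ± 3.14, *Bmp2* with 9.39 ± 2.54 and *Bmp4* with 9.06 ± 2.00, and in this stretch from *Bmpr1a* to *Bmp4* each gene overlapped its neighbour. *Bmpr2* (3.99 ± 0.458) lay below *Bmp4* without overlap, and *Chrdl1* (2.24 ± 2.21) overlapped *Bmpr2*. By means, *Grem1* was at 9.97 ± 4.06 in Apc1322T, below *Bmp7* (11.9), and at 20.5 ± 12.5 in ApcMin, above *Bmpr1a* (16.7) (SD, n = 3). This order did not hold in every library. In ApcMin replicate 3 *Grem1* (9.8) was below *Bmpr1a* (17.0) and *Bmp7* (15.4). In Apc1322T replicate 3 it was above *Bmp7* (11.6 against 9.67). The ApcMin mean of *Bmp4* (9.76) was above that of *Bmp2* (9.27). *Bmp4* came before *Bmp2* when the longest transcript was used as the length, and the other 8 kept their places.

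Within the pathway, 9 pairs were correlated over the 6 libraries, and none was past 0.05 by an exact permutation test, two-sided. *Grem1* and *Bmp4* had the largest Pearson's r, 0.68 (p = 0.129, exact permutation, 0.453 adjusted over the pairs), with Spearman's rho of 0.71 (p = 0.136, exact permutation, 0.306 adjusted) and r of 0.72 without the 2 farthest libraries. *Id2* and *Id3* had r of 0.66 (p = 0.176, exact permutation, 0.453 adjusted) and rho of 0.71 (p = 0.136, exact permutation, 0.306 adjusted), but r was -0.60 without Apc1322T replicate 1 and ApcMin replicate 2, on which the relation rested. *Bmp2* and *Id1* had r of 0.65 (p = 0.164, exact permutation, 0.453 adjusted) and rho of 0.71 (p = 0.136, exact permutation, 0.306 adjusted), with r of 0.62 without the 2 farthest. The other 6 pairs had r between -0.51 and 0.47. After the genotype means were removed, r over the 6 libraries was 0.81 for *Bmp2* and *Id1* and 0.81 for *Id2* and *Id3*. It was 0.59 for *Grem1* and *Bmp4*, -0.64 for *Bmp7* and *Id1*, and between -0.44 and 0.37 for the remaining pairs. These values are given as a description with no test.

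The wider pathway was read from a list of 45 further genes, of which 37 were expressed enough to test (*Bmp10*, *Gdf2*, *Gdf5*, *Gdf6*, *Gdf7*, *Bmpr1b*, *Nog* and *Sostdc1* were not). 0 passed the adjusted p of 0.01 in edgeR or DESeq2, and 3 higher and 3 lower ones in ApcMin had an unadjusted p under 0.05 by edgeR, 6 of 37 against the 15.1% of all tested genes. The log2 fold change was positive for 26 and negative for 11, with a median of 0.22 against 0.017 over all tested genes. Over all 16536 tested genes it was positive for 8661 and negative for 7875. Of the other secreted antagonists and modulators, 9 of 11 had positive values, with a median log2 fold change of 0.52. The fibroblast list differed by 0.96 in mean log2 CPM, which is another measure. The part of stromal content in these values was not tested. All ApcMin libraries lay above the Apc1322T libraries for 4 of the 37 genes and below them for 2, against 11.0% and 9.96% of all tested genes.

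Of these, *Chrdl2*, a chordin-like antagonist, had 29, 9 and 49 counts in Apc1322T and 220, 93 and 71 in ApcMin (log2 fold change 1.72, SE 0.62, edgeR adjusted p = 0.308). *Bmp8a*, a BMP ligand, had 148, 282 and 260 counts in Apc1322T and 74, 128 and 135 in ApcMin (-1.41, SE 0.45, edgeR adjusted p = 0.287, DESeq2 adjusted p = 0.0413). These low transcripts were the extremes of the pathway in either direction. Among the transducers, *Smad9* had 45, 29 and 40 counts in Apc1322T and 74, 95 and 106 in ApcMin (0.93, SE 0.31, edgeR adjusted p = 0.288). *Smad5* was at 5.89, 5.78 and 5.79 against 6.08, 6.02 and 6.01 log2 CPM (0.22, SE 0.076, edgeR adjusted p = 0.302). Both are receptor-activated Smads of the BMP branch, while *Smad1*, the remaining one of that branch, had a log2 fold change of 0.054 (SE 0.095). *Smad4*, the partner that the BMP and TGFβ branches share, was at 6.72, 6.66 and 6.88 log2 CPM in Apc1322T and 6.41, 6.50 and 6.40 in ApcMin (-0.32, SE 0.088, unadjusted p = 0.00907, edgeR adjusted p = 0.279). It had the smallest p of the pathway in edgeR, whereas *Bmp8a* and *Chrdl2* had smaller ones in DESeq2. *Smad4* lies at chr18:73639009-73703780, on the chromosome that carries *Apc*. Whether its difference goes with the *Apc* allele through linkage was not tested. In the same libraries the epithelial list differed by -0.40, and by -0.24 without TMM factors. The part of epithelial content in the *Smad4* difference was not tested. *Acvr1*, a type I receptor, was the remaining gene without overlap (0.18, SE 0.11, edgeR adjusted p = 0.460), and *Crim1*, which overlapped, had -0.36 (SE 0.14, edgeR adjusted p = 0.311). For each of the 6 genes without overlap the exact permutation p was 0.10, the smallest possible.

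**Figure D3:**
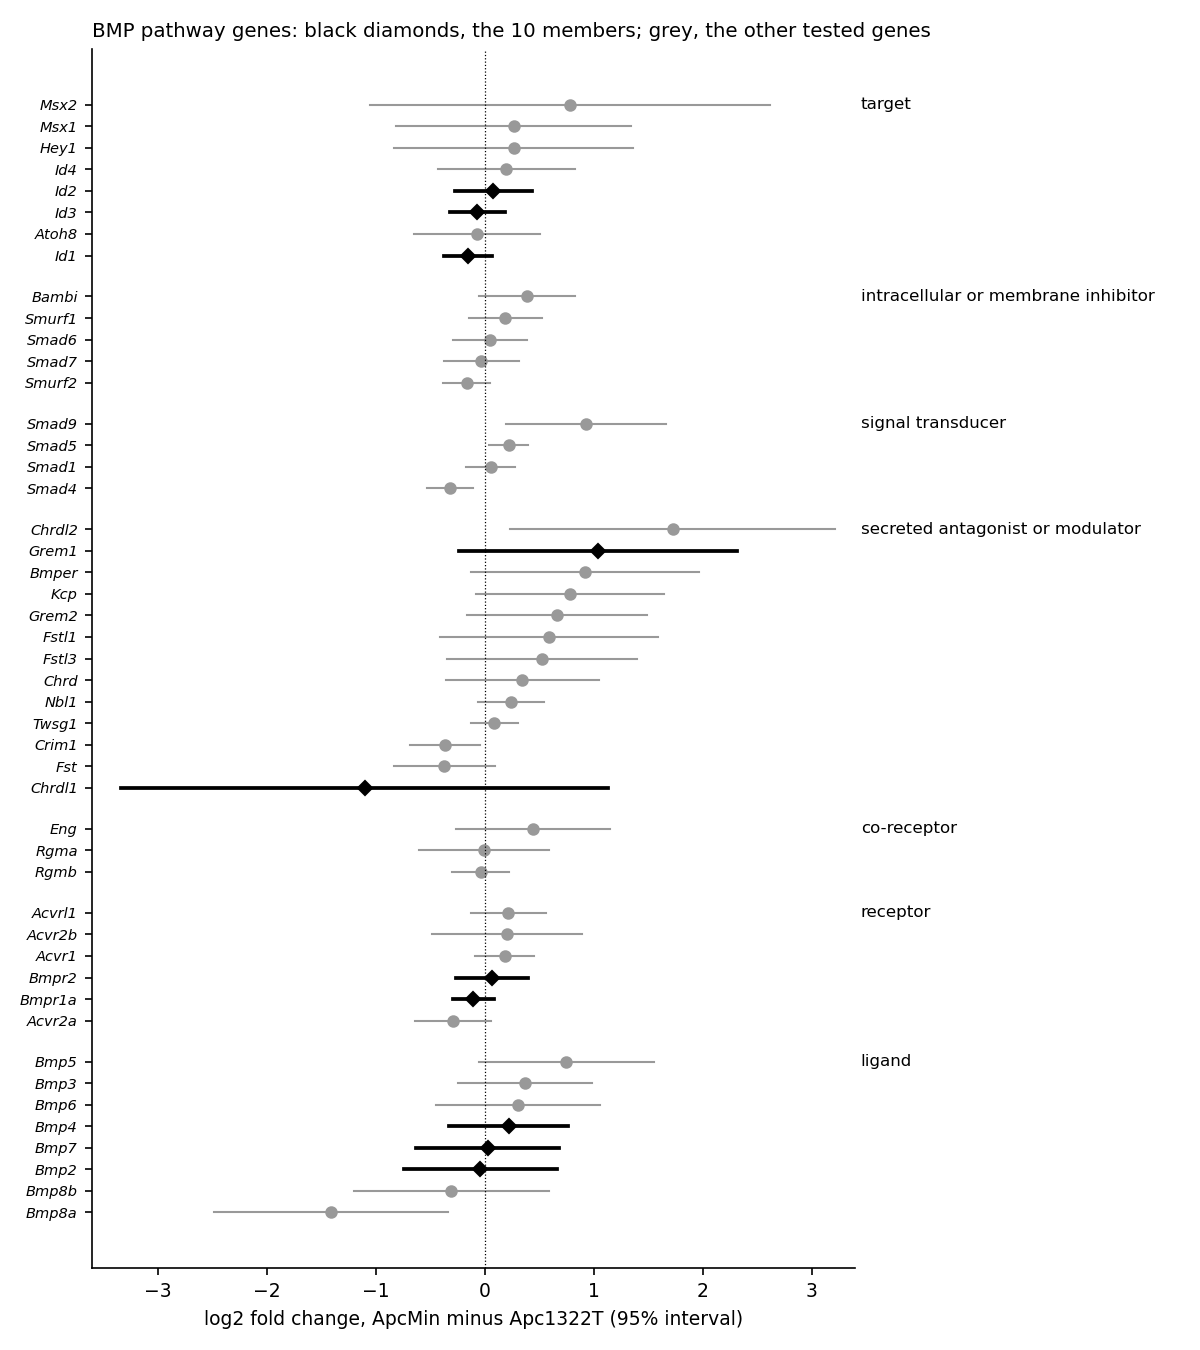
Log2 fold change of ApcMin minus Apc1322T with its 95% interval (x axis) for the 47 tested genes of the pathway, grouped by role (y axis), with black diamonds for the 10 genes described first and grey circles for the others. All 10 black intervals cross 0, and they are narrow for *Bmpr1a*, *Bmpr2*, *Id1*, *Id2* and *Id3* and wide for *Grem1* and *Chrdl1*.

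The same likeness was computed for a ligand and a target. The 5 genes most like *Bmp4* were *Yif1b* (Pearson's r 0.990), *Saal1* (0.989), *Sltm* (0.980), *Tfap4* and *Cks1b* (each 0.972), with 80 genes at 0.9 or more of 13483 compared. For *Id1* they were *Tnnt1* (0.994), *Sppl3* (0.993), *Gm15899* (0.987), *Gm4034* and *Lactb* (each 0.982), with 320 genes at 0.9 or more. None of the 10 BMP genes was among the 5 nearest to *Grem1*, *Bmp4* or *Id1*.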

How the data were processed

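RNA was extracted from frozen adenomas and sequenced as stranded libraries (NEBNext Ultra II Directional). The authors quantified reads with Salmon against the GRCm38 transcriptome (GRCm38.p6 in the submitters' processing notes) and deposited estimated counts per gene, not normalised, of which 33.4% are not whole. These were rounded, and each library was matched to its genotype by its label. Identifiers were matched to GENCODE M21 for 34652 of 34866 genes. No pair of libraries agreed within counting noise (chi-square per gene at least 24.3).

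Genes were filtered with filterByExpr (minimum count 10, minimum total count 15), scaled by TMM and tested in edgeR 4.0.16 (R 4.3.3) by its quasi-likelihood F-test with robust estimation, with Benjamini-Hochberg adjustment over 16536 genes and a threshold of 0.01. Fold changes are from this fit, SEs from its F statistics. Log2 CPM used a prior count of 2. edgeR, DESeq2 and voom were checked on simulated counts. Permutation tests and correlations were computed directly in Python 3.11.15 or R, with ranks for Spearman's rho from scipy 1.17.1. The alternatives were DESeq2 1.42.0 (the study's tool), limma-voom (limma 3.58.1), other scalings, filters and thresholds, a replicate block and leaving out each library.

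The genes, pathway and marker lists were chosen with earlier results of these data known. A further marker list is not reported here. Beyond the 10, the rule named any pathway gene past the threshold and up to 5 in each direction without overlap between genotypes. It also named the 5 genes most like each of *Grem1*, *Bmp4* and *Id1*. *Crim1*, which had an unadjusted p under 0.05 by edgeR, and *Smad1* were named after their values were seen. The intervals cover the spread between these 6 libraries.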

Additional observations from a re-analysis of the deposited data

How the results depend on the processing

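Neither any of the 10 BMP genes nor any other pathway gene was called under any of the 15 alternatives. The count over all genes, 0, was 194 with DESeq2 (125 higher and 69 lower in ApcMin), 1 without a filter, 1 at an adjusted p under 0.05, and 0 to 1 when 1 library was left out (1 without ApcMin replicate 3). Genes at an unadjusted p under 0.05 numbered 1180 (without Apc1322T replicate 2) to 4117 (without Apc1322T replicate 1). Leaving out 1 library turned the sign of *Bmp2* (-0.38 to 0.17), *Bmp7* (-0.18 to 0.34), *Bmpr2* (-0.069 to 0.15), *Chrdl1* (-2.13 to 0.015) and *Id2* (-0.016 to 0.24), and fewer samples enter each such fit. Upper quartile scaling turned *Bmp2* to 0.022. *Bmp4*, *Bmpr1a*, *Grem1*, *Id1* and *Id3* kept their sign under all 15. Relative to marker lists, added after seeing the data, *Grem1* turned to -0.0088 and *Id1* to 0.25. The epithelial difference was -0.24 (exact permutation p = 0.20) without TMM factors. Without the 2 farthest libraries r was 0.12 for *Id1* and *Id2*, 0.58 for *Id1* and *Id3*, -0.60 for *Id2* and *Id3*, 0.035 for *Bmp4* and *Id1* and 0.038 for *Bmpr1a* and *Bmpr2*. With the longest transcript *Bmp4* ranked 7 and *Bmp2* 8. Where no construction is named, the cause was not tested.

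Replicate numbers name different mice. Deviations of same-numbered libraries correlated at -0.014, 0.16 and -0.29, so the numbers were not taken as pairs, and not every library was closest to its own number. With the replicate block 0 genes were called and 2113 had an unadjusted p under 0.05, and *Grem1* was at 0.97.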
